A study of Rattus norvegicus with 6 samples.

Results

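Translation initiation and elongation factors are the proteins that place a ribosome on an mRNA, set it at the start codon and move it along the message. The mRNAs of these factors were followed in the livers of rats on a control diet (CD) or a Western diet (WD), in total RNA and in the light and heavy fractions of sucrose gradients. Members were the loci whose symbol starts with Eif or Eef, without the Eif4ebp genes (inhibitors of eIF4E) and the Eif2ak genes (kinases of eIF2). The rule took no measured value into account, except that the locus with the highest mean was kept where a symbol was repeated. It gave 59 members of 32158 loci with a symbol, and 51 of them had a mean of at least 1 FPKM (fragments per kilobase of transcript, scaled to the size of the library) over the 6 libraries. The 8 members below that mean were Eif4e1b, Eif4e3, Eef1a2, Eif5a2, Eef2kmt, Eef1b2l, Eif3i-ps1 and Eif6-ps1, and 3 of these were listed at 0 in every library.

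The rats were male Sprague Dawley animals of an obesity-prone strain (op-SD). All ate the CD (code TD 08485) at first, and for 2 weeks then either stayed on it or ate the WD (code TD 88137) freely. They were fasted overnight and refed their own diet before the left liver lobe was taken. Their age is not given in the sources used here. The light fraction held mRNAs bound to 3 or fewer ribosomes and the heavy fraction mRNAs bound to 4 or more. Each of the 6 libraries (total, light and heavy, with either diet) is 1 pool of the RNA of 3 rats, so no value has a replicate and no test of the diets could be made.

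Initiation begins when eIF2 brings the initiator tRNA to the small ribosomal subunit together with eIF1, eIF1A, eIF3 and eIF5. The eIF4 factors bind the cap and unwind the leader of the mRNA, and eIF5B joins the large subunit. In elongation, eEF1A delivers each aminoacyl tRNA and eEF2 moves the ribosome on by a codon. Several of these factors, eEF1A and eEF2 among them, are encoded by TOP mRNAs, which begin with a C followed by a run of pyrimidines and whose translation depends on the kinase mTORC1. The liver makes large amounts of secreted protein, and its translation falls in fasting and rises upon refeeding.

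The start sites of TOP mRNAs among the members are shown because such a tract at the first base is what defines these mRNAs. Of the 9 members on the list (Eef1a1, Eef1b2, Eef1d, Eef1g, Eef2, Eif3e, Eif3f, Eif3h and Eif4b), 5 had an entry in the RefSeq promoter table of the rat assembly GRCr8. Each line gives 30 bases around the longest tract, 5′ to 3′ on the transcribed strand, with the tract in capitals. A tract is a C followed by at least 5 bases that are each C or T, within 25 bases of the annotated start.
Eef1a1: gccttggacgttCTTTTTCgcaacgggttt
Eef1b2: ggtcccggCCCTTTTTCTCCCTCagcgctg
Eef1g: acagccccaCCCCCTTTCTCTgcggaatca
Eef2: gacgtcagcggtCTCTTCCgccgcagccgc
Eif3f: cgttctagCCTCTCTCTTTCTCggcaagat

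These stretches lie at chr8:88225053-88225082 (minus strand) for Eef1a1, chr9:72074085-72074114 (plus) for Eef1b2, chr1:215289786-215289815 (plus) for Eef1g, chr7:9189239-9189268 (minus) for Eef2 and chr1:172369058-172369087 (plus) for Eif3f, all in GRCr8. The tract of Eef1a1 ran from base -1 to base 6, where base 1 is the first transcribed base. That of Eef1b2 ran from base 3 to 17 and that of Eif3f from base 5 to 18. In Eef1g and Eef2 the tract ended 9 and 12 bases before the annotated start. All 5 windows held a tract, as did 18 of the 46 windows of the other members (39.1%) and 11338 of all 33469 windows (33.9%). The search was made on the transcribed strand only, since the tract is a property of the RNA. A tract of this kind is therefore common near annotated starts, and its presence in these letters does not show that the mRNA starts there.

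The 3 members below were taken from those outside the TOP list that had no tract in this window, so they do not stand for the rest. Of the 46 windows of members outside the list, 18 held a tract. That of Eif2a ran from base 1 to 8 and that of Eif2s3 from base 5 to 16. For the 3 without a tract, the 30 bases centred on the annotated start are given.
Eif4a1: ggcgggcactccgccctagattctaaggat
Eif5: cccggggccgagggtagcttgagcgcggcg
Eif6: gcagcgtgtagagattggagtcgtttggtg

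They lie in GRCr8 at chr10:54888588-54888617 (minus) for Eif4a1, chr6:136410318-136410347 (plus) for Eif5 and chr3:164791396-164791425 (minus) for Eif6. Gene coordinates given below are those of the deposited table, in the assembly Rnor_6.0.

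All 10 hepatocyte markers were above 0 in every library, and their summed level was between 36154 and 120471 FPKM. Markers of Kupffer cells and macrophages (11 of 11 above 0 in every library) summed to 120 to 225 FPKM, endothelial markers (7 of 7 found) to 56.1 to 86.8, stellate and fibroblast markers (6 of 7) to 49.0 to 83.3, and bile duct markers (at most 2 of 4) to at most 4.35. One library stood apart. In WD light the loci with a symbol summed to 866676 FPKM, against 616030 to 699570 in the other libraries, and its depth was 2.34 times that of CD heavy, against 1.00 to 1.57. The 9 blood markers found summed to 548 FPKM there, with 8 of 9 above 0, and elsewhere to between 31.0 and 108 FPKM. Most of the sum in WD light was hemoglobin chains, with Hbb at 242, Hba1 at 163 and Hba2 at 91.0 FPKM. Of the 7 blood markers that averaged at least 1 FPKM, 5 were higher in WD light than in CD light. The other 2 were lower, Alas2 (7.18 against 19.7 FPKM) and Ptprc (2.11 against 2.87 FPKM). The part of this library's composition in the results below was not tested, and fewer cells of a type and less RNA per cell cannot be told apart in bulk tissue.

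A fold below is a ratio of FPKM after 0.1 was added to each value. Ratios of at least 1.5 or at most 0.75 are counted. The study set the same limits on the CD over WD ratio of density. Ribosome density is the heavy fraction over the light fraction, and its change is the WD density over the CD density. For 38 of the 51 members the number of fragments behind each value could be inferred, and intervals given are 95% intervals of counting error. They compare libraries, not diets, and were computed on the deposited scale only.

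In total RNA, the factor mRNAs were at nearly the same level with both diets. The 51 members summed to 1879 FPKM in CD total and 1900 FPKM in WD total, and 25 were higher and 26 lower with the WD. Their median log2 change was -0.03, beside 0.02 for the 10201 loci compared. At least 1.5-fold higher were 6 members, where 17.7% of all loci were, and at most 0.75-fold were 4, where 22.7% were. Among the 36 members with a mean of at least 10 FPKM, 1 passed either limit, Eif3g, at most 0.75-fold. Of all loci with that mean, 8.77% were at least 1.5-fold and 16.2% at most 0.75-fold. The counting interval lay above 1 for 3 of 38 members (4.13% of all loci) and below 1 for 0 of 38 (4.3%).

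The fractions differed more. In the light fraction 18 members were at least 1.5-fold higher with the WD (25.9% of all loci) and 5 at most 0.75-fold (26.8%), with a median log2 change of 0.13 beside 0.02. The counting interval lay above 1 for 6 of 38 (8.73%) and below 1 for 2 (10.1%). In the heavy fraction 7 were at least 1.5-fold higher (21.7%) and 16 at most 0.75-fold (25.8%), with a median of -0.17 beside -0.02, and the interval lay above 1 for 2 (3.83%) and below 1 for 4 (4.83%). Beside all loci, the members thus had more ratios of at least 1.5 and fewer of at most 0.75 in the light fraction, and the reverse in the heavy fraction, with no test. Eif3h and Eif4e2 are counted as higher in both fractions, though both are listed at 0 in CD light and CD heavy. For ribosome density, 5 members were at least 1.5-fold higher (27.7%) and 20 at most 0.75-fold (36.1%). Density was lower with the WD for 34 of 51 members and for 5172 of the 10201 loci compared. The median log2 change was -0.31 beside -0.02 for all loci. Of the same 10201 loci, 5203 were higher in the light fraction and 5138 lower in the heavy fraction. The counting interval of the density ratio lay below 1 for 7 of 37 members (5.04% of all loci) and above 1 for 1 (6.17%). These interval counts hold for the deposited scale and were not repeated on the rescaled scale that follows. After division of each library by its sum over loci with a symbol, the median of all loci moved to 0.28 for density and to -0.29 for the light fraction. The members' medians then became 0.02 and -0.23. The split of members past the upper and the lower limit became 12 and 18 in the light fraction (18 and 5 as deposited), where 17.4% and 44.1% of all loci were past these limits on the rescaled scale. For density it became 8 and 17 (5 and 20 as deposited), beside 38.0% and 27.2%, and 28 of 51 members had a higher density with the WD on that scale. On either scale the members' median density change lay below that of all loci. With heavy over total as another measure of the heavy share, 11 members were at least 1.5-fold higher with the WD (26.7% of all loci) and 20 at most 0.75-fold (31%), with a median of -0.20 beside 0.00.

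**Figure D1:**
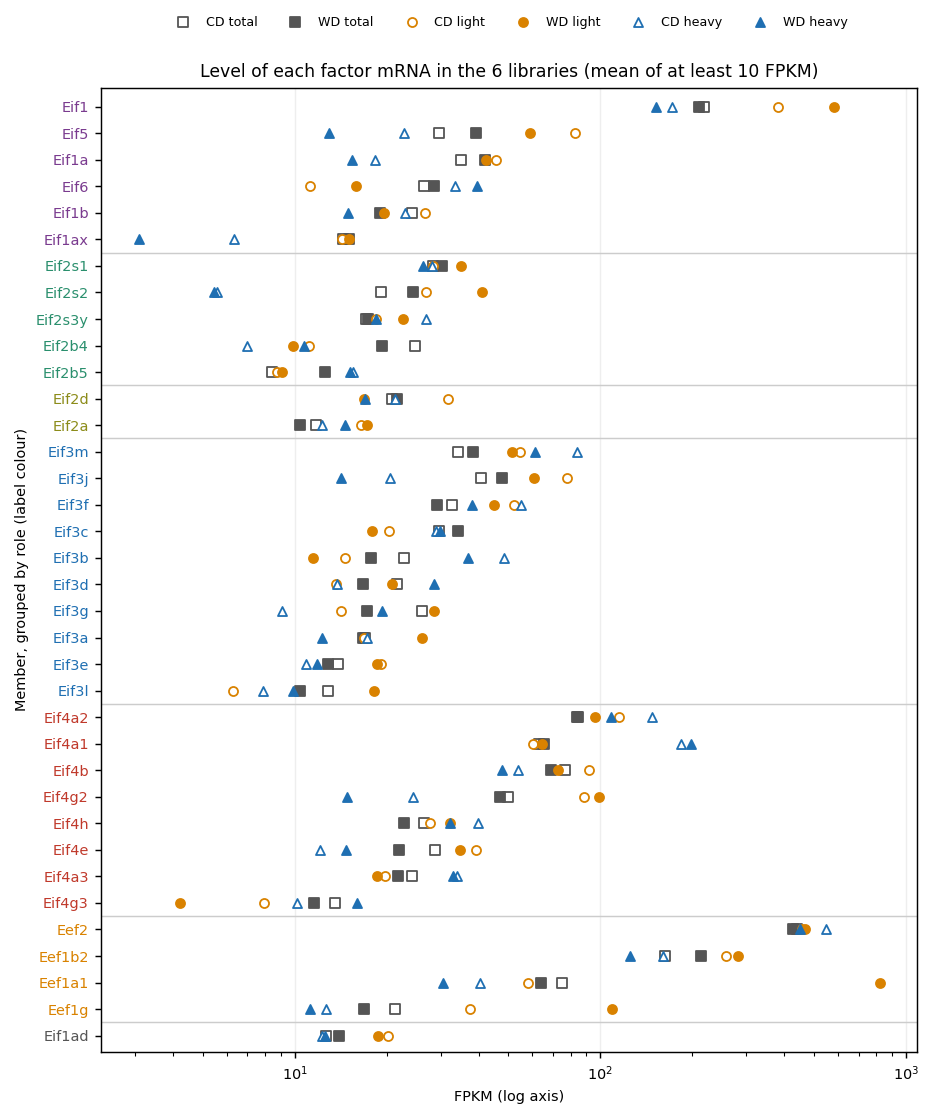
Level of each factor mRNA with a mean of at least 10 FPKM (36 members, rows grouped by role) in the 6 libraries, on a log axis of FPKM. Open symbols are CD and filled symbols WD, with squares for total RNA, circles for the light and triangles for the heavy fraction; Eef1a1 in WD light, at 823 FPKM, sits far to the right of its other 5 values, which lie between 30.5 and 75.1 FPKM.

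Of the 6 elongation factors that passed, 5 had a lower density with the WD and 1 a higher one, or 4 and 2 after rescaling, with medians of -0.78 and -0.45. Eef1a1 (chr8:85838868-85840818) encodes eEF1A1, the carrier of aminoacyl tRNA in most tissues. It was at 75.1 FPKM in CD total, 63.9 in WD total, 58.2 in CD light, 823 in WD light, 40.5 in CD heavy and 30.5 in WD heavy. WD light alone was high. The light fraction was 14.1-fold higher with the WD (counting interval 10.8 to 18.9), from 54 inferred fragments against 1661. The heavy fraction was 0.754-fold (interval 0.438 to 1.28), so the density ratio of 0.0534 (0.0289 to 0.0982) came from the light fraction. Heavy over total gave a log2 change of -0.18, against -4.23 for heavy over light (-3.90 after rescaling). Cufflinks' own bounds were wide for Eef1a1, at 0 to 1740 FPKM in WD light and 12.8 to 103 FPKM in CD light, and they overlapped.

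Within the WD, Eef1a1 in the light fraction was 3.68 log2 units above total RNA, whereas in the CD it was 0.37 below. The median over members of this difference between light and total was 0.31 in the WD and 0.06 in the CD. Of 3914 loci above 0 in both light libraries and averaging 10 FPKM or more, 22 had a larger WD over CD ratio in the light fraction than Eef1a1. The RefSeq annotation names 20 pseudogene copies of Eef1a1, the most of any member, and reads may be shared with such copies. Its paralogue Eef1a2, the form of muscle and neurons, was listed at 0 in 5 libraries and at 0.325 FPKM in WD light.

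Eef2, the translocase, was the most abundant member in 5 of 6 libraries. It measured 441 FPKM in CD total and 428 in WD total, 459 in CD light and 468 in WD light, and 547 in CD heavy and 450 in WD heavy. The total and light ratios were 0.971 and 1.02, with intervals that included 1, and the heavy library was lower with the WD. The heavy ratio was 0.823 (interval 0.753 to 0.899) and the density ratio 0.807 (0.717 to 0.908), on 912 to 2159 fragments per library. After rescaling the libraries to the same sum, the log2 density change of Eef2 was 0.02. Eef1a1 was at 0.0677 to 0.170 of the Eef2 level in 5 libraries and at 1.76 times that level in WD light.

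The 3 members of the eEF1B complex, which recharges eEF1A with GTP, were all higher in WD light than in CD light as deposited, though Eef1b2 turned to a log2 light change of -0.23 after rescaling. All 3 were lower in density with the WD, with overlapping intervals. Eef1g was at 21.2 FPKM in CD total, 16.8 in WD total, 37.5 in CD light, 109 in WD light, 12.7 in CD heavy and 11.2 in WD heavy. Its light fraction was 2.91-fold higher with the WD (2.04 to 4.29) and its heavy fraction rested on 11 and 10 fragments. The density ratio was 0.305 (0.108 to 0.862), but the heavy share of total RNA had a log2 change of 0.16, in the other direction. Rescaling left heavy over light at -1.38, and no interval was computed on that scale. RefSeq names 16 pseudogene copies of Eef1g.

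Eef1b2 was at 163 FPKM in CD total and 214 in WD total, 259 in CD light and 283 in WD light, and 160 in CD heavy and 125 in WD heavy. This was 1 of the 3 members whose total RNA interval lay above 1 (ratio 1.31, interval 1.06 to 1.64), while its heavy fraction was lower with the WD. The density ratio was 0.715 with an interval of 0.495 to 1.03, which includes 1. Eef1d was at 10.6 and 16.6 FPKM in CD and WD total, 3.52 and 8.10 in the light and 7.57 and 8.12 in the heavy fractions. Its light value in CD rested on 5 fragments, and none of its diet intervals left out 1.

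Eefsec, which brings selenocysteine tRNA to the ribosome, had a log2 density change of 1.02, the one elongation factor above 0, at a mean of 5.71 FPKM. A locus that merges Eif5a with a second identifier fell outside the rule. It encodes eIF5A, which helps ribosomes through difficult peptide bonds, and was at 194 and 171 FPKM in CD and WD total, 200 and 109 in the light, and 219 and 224 in the heavy fractions. Its light fraction was thus lower with the WD, and its log2 density change was 0.91. The paralogue Eif5a2 was listed at 0 in 5 libraries and at 0.378 FPKM in WD light.

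**Figure D2:**
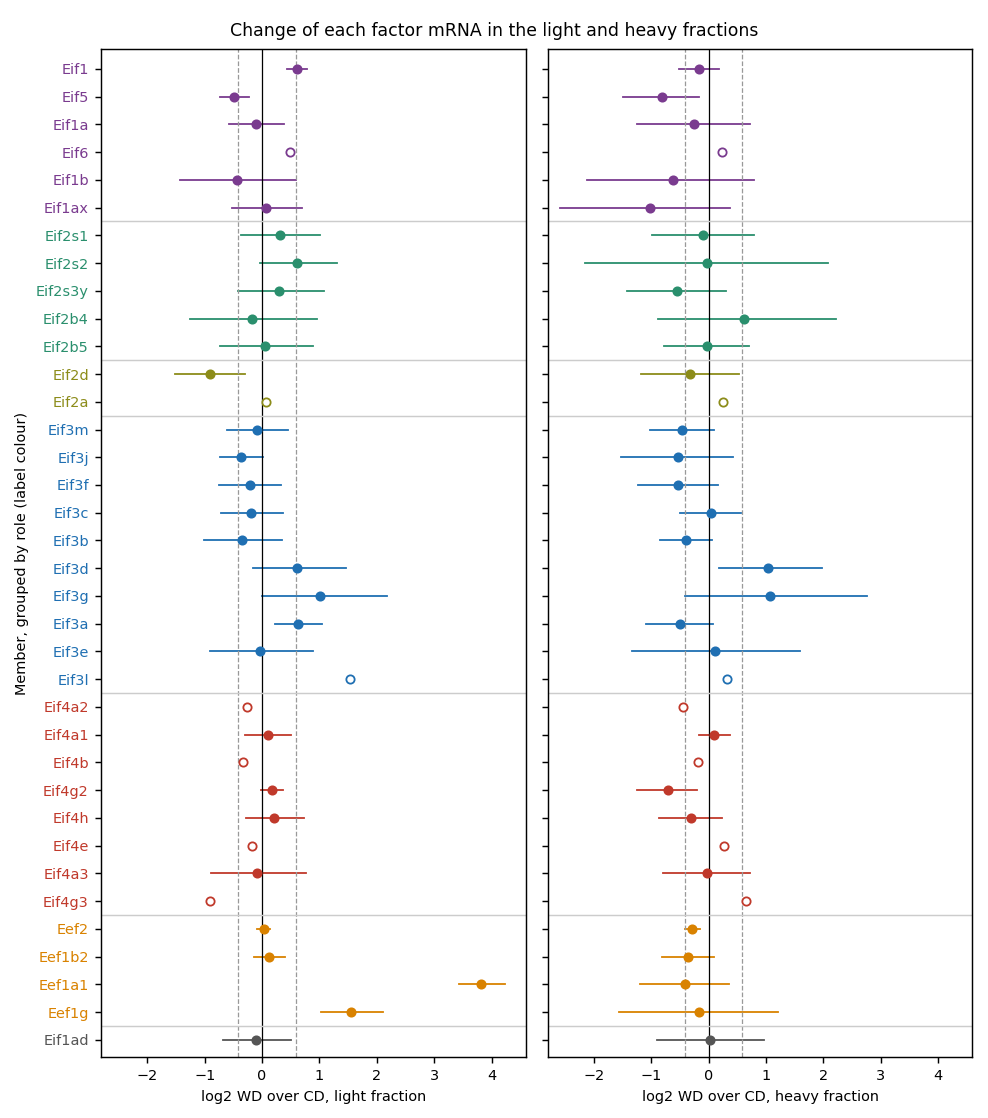
Log2 WD over CD of the 36 members with a mean of at least 10 FPKM in the light (left) and heavy (right) fraction, rows grouped by role. Bars are 95% counting intervals where fragment numbers were inferred (filled points), open points have none, and dashed lines mark ratios of 0.75 and 1.5. In the light fraction Eef1a1 (3.82), Eef1g (1.54), Eif1 (0.61), Eif3a and Eif3g lie to the right with intervals above 0. In the heavy fraction most points lie left of 0.

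Among the 7 factors of start codon selection and subunit joining, every one had a lower density with the WD as deposited and 3 after rescaling to the same sum. On either scale 3 were at most 0.75-fold (Eif1, Eif1ax and Eif5b on the deposited scale), beside 36.1% of all loci as deposited and 27.2% after rescaling, and the median log2 change was -0.33 as deposited and 0.00 after rescaling. The heavy fraction was lower for 6 of 7 on both scales. Their median in total RNA was 0.11. The most abundant was Eif1, whose product keeps the scanning ribosome from starting at a wrong codon. It was at 219 FPKM in CD total and 210 in WD total, 380.5 in CD light and 581 in WD light, and 171 in CD heavy and 153 in WD heavy. As deposited, the light fraction stood out with a ratio of 1.53 (1.35 to 1.72, from 353 and 1172 fragments), while total and heavy intervals included 1. After rescaling, the log2 light change of Eif1 was 0.26, inside the limit. Its density ratio was 0.583 (0.445 to 0.765). RefSeq names 8 pseudogene copies of Eif1. The log2 density change of -0.78 became -0.45 after rescaling and -0.11 as heavy over total.

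Eif5 encodes the factor that makes eIF2 hydrolyse GTP at the start codon. It was at 29.6 FPKM in CD total, 39.3 in WD total, 82.5 in CD light, 58.9 in WD light, 22.9 in CD heavy and 13.0 in WD heavy. With the WD it was higher in total RNA and lower in both fractions. The total ratio was 1.32 (1.03 to 1.71), the light ratio 0.715 (0.60 to 0.853) and the heavy ratio 0.570 (0.355 to 0.894). Its density ratio of 0.797 (0.481 to 1.30) did not leave out 1, with both fractions lower, and its heavy over total log2 change was -1.22.

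Eif1a was at 35.0 and 41.9 FPKM in CD and WD total, 45.6 and 42.3 in the light and 18.4 and 15.4 in the heavy fractions, with intervals that included 1 in each. It was 2.44 times as abundant as its paralogue Eif1ax in CD total and 2.79 times in WD total. Eif1b, a close relative of Eif1, was at 24.3 FPKM in CD total, so Eif1 was 9.02 times more abundant there and 11.1 times in WD total. Eif5b, the GTPase that joins the subunits, was listed at 0 in WD heavy and at 1.5 to 4.82 FPKM elsewhere. Its total RNA interval lay above 1 (1.07 to 7.62, from 7 and 18 fragments), and so small a number of fragments leaves its heavy value uncertain. Values of Eif5b, Eif3a, Eif3b, Eif4enif1, Eif6, Eif2s1, Eif2s2, Eif2s3, Eif2s3y, Eif2a, Eif1ax, Eefsec and Eef2k go beyond what the rule for named genes asks. The rule gives some of these genes by name only, for counts of 5 or fewer. All these values were chosen after they were seen.

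eIF2 and its exchange factor eIF2B control how much initiator tRNA is available, and stress kinases act on them. Of the 9 members, 2 had a higher and 7 a lower density with the WD, with a median log2 change of -0.40. The light fraction was higher for 8 of 9, beside 5203 of 10201 loci. After rescaling, 6 had a lower density (median -0.07) and 3 a higher light fraction. Eif2s1, the subunit the kinases phosphorylate, was between 26.2 and 35.0 FPKM in all 6 libraries. Among the eIF2B subunits, Eif2b4 was at 24.8 and 19.3 FPKM in CD and WD total, 11.2 and 9.84 in the light and 6.99 and 10.7 in the heavy fractions. Eif2b5, the catalytic subunit, was at 8.40 and 12.6 FPKM in CD and WD total, 8.78 and 9.09 in the light and 15.6 and 15.2 in the heavy fractions. Eif2b4 had 1 of the 3 highest density changes (0.79) and Eif2b5 1 of the 3 highest total changes (0.57) among members of at least 10 FPKM, yet the intervals of both included 1, on 7 to 45 fragments per library. The γ subunit is encoded by the near-identical Eif2s3 and Eif2s3y, and reads may be split between them. Their sum was between 19.9 and 34.0 FPKM.

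Eif2d and Eif2a can bring initiator tRNA without the usual complex. Eif2d was at 20.8 FPKM in CD total and 21.7 in WD total, 31.8 in CD light and 16.9 in WD light, and 21.2 in CD heavy and 17.0 in WD heavy. CD light was the high value. The light ratio was 0.533 (0.350 to 0.810), and with the heavy ratio at 0.803 the log2 density change was 0.59 (density interval 0.721 to 3.15). Heavy over total gave -0.38, in the other direction. Eif2a had changes of -0.17 in total RNA and 0.19 in density on the log2 scale.

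eIF3 is the large scaffold that holds the initiation complex together. Its 13 subunit mRNAs ranged from 2.48 to 40.7 FPKM in CD total and from 2.60 to 47.7 FPKM in WD total, and 4 had a higher and 9 a lower density with the WD, or 7 and 6 after rescaling. In the light fraction 7 were at least 1.5-fold higher (Eif3h, listed at 0 in CD, included) and 0 at most 0.75-fold, beside 25.9% and 26.8% of all loci. After rescaling these counts were 5 and 5, beside 17.4% and 44.1%. In the heavy fraction 3 (again with Eif3h) were at least 1.5-fold higher and 6 at most 0.75-fold, beside 21.7% and 25.8%. Subunits thus lay past both limits in the heavy fraction, but a difference between them was not tested. Among those with a heavy counting interval, only that of Eif3d left out 1.

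Eif3m was at 34.2 and 38.3 FPKM in CD and WD total, 54.8 and 51.4 in the light and 83.8 and 61.1 in the heavy fractions. Eif3j, a loosely bound subunit, was at 40.7 and 47.7 FPKM in CD and WD total, 77.9 and 60.7 in the light and 20.5 and 14.2 in the heavy fractions. Eif3f was at 32.6 and 29.2 FPKM in CD and WD total, 52.3 and 44.9 in the light and 54.9 and 38.1 in the heavy fractions. All 3 were lower with the WD in the heavy fraction, with ratios between 0.693 and 0.729, and all 3 heavy intervals included 1.

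Eif3d and Eif3g went the other way in the heavy fraction. Eif3d, a subunit that can itself bind the cap of some mRNAs, was at 21.7 and 16.7 FPKM in CD and WD total, 13.6 and 20.8 in the light and 13.8 and 28.5 in the heavy fractions. Its heavy ratio was 2.06 (1.13 to 3.92, from 17 and 36 fragments). Eif3g was at 26.1 and 17.2 FPKM in CD and WD total, 14.1 and 28.6 in the light and 9.11 and 19.3 in the heavy fractions. Both were lower in total RNA and higher in both fractions with the WD, so heavy over light hardly moved for Eif3g (log2 change 0.06) while heavy over total was 1.67 log2 units higher, on 6 and 13 heavy fragments.

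Eif3a, the largest subunit, had nearly equal total levels of 17.0 and 16.7 FPKM. Its light level was 16.9 FPKM in CD and 26.0 in WD (ratio interval 1.16 to 2.07), and its heavy level was 17.3 and 12.3 FPKM. The density ratio was 0.461 (0.278 to 0.758), or -0.79 on the log2 scale after rescaling, and RefSeq names 0 pseudogene copies of this gene. Eif3l was at 12.8 and 10.4 FPKM in CD and WD total, 6.26 and 18.2 in the light and 7.85 and 9.85 in the heavy fractions. It had 1 of the 3 lowest log2 density changes (-1.20), and heavy over total gave 0.62, in the other direction.

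Eif3e was at 13.8 and 12.9 FPKM in CD and WD total, 19.1 and 18.6 in the light and 10.9 and 11.8 in the heavy fractions. Its values hardly moved with diet. Eif3h was at 2.48 and 2.60 FPKM in CD and WD total, was listed at 0 in CD light and CD heavy, and was at 11.7 FPKM in WD light and 5.08 in WD heavy. The loci that carry the symbols Eif3e and Eif3h in the deposited table lie on chromosomes 13 and 6, other chromosomes than RefSeq gives for these genes, so that their identity is uncertain.

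Among the cap binding and helicase factors, density was higher with the WD for 5 of 10 members and lower for the other 5 (median -0.09), or for 7 and 3 after rescaling (median 0.24). Eif4a1 (chr10:56271256-56276764) encodes the main helicase of the cap complex. It was at 63.0 and 65.3 FPKM in CD and WD total, 60.3 and 64.5 in the light and 184 and 197 in the heavy fractions. The ratios between the diets were 1.04, 1.07 and 1.07, and the heavy fraction was about 3 times the light fraction with either diet (3.04 in CD, interval 2.33 to 4.03, and 3.06 in WD, interval 2.50 to 3.75). Its density ratio between the diets was 1.00 (0.711 to 1.41), or 0.34 on the log2 scale after rescaling, and RefSeq names 8 pseudogene copies.

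Eif4a2, the close paralogue, was at 83.6 and 84.7 FPKM in CD and WD total, 115 and 96.3 in the light and 147 and 109 in the heavy fractions. It was the more abundant of the pair in total RNA, where Eif4a1 was at 0.753 and 0.771 of its level in CD and WD. In the heavy fraction the order turned, with Eif4a1 at 1.25 times the Eif4a2 level in CD and 1.82 times in WD. No fragment numbers were found for Eif4a2, so the order has no interval.

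Eif4b and Eif4h stimulate the helicase. Eif4b was at 76.5 and 69.0 FPKM in CD and WD total, 91.8 and 72.8 in the light and 54.0 and 47.6 in the heavy fractions, lower with the WD in all 3 kinds of RNA, and its log2 density change was 0.15 (0.48 after rescaling). Eif4h was at 26.5 and 22.7 FPKM in CD and WD total, 27.7 and 32.2 in the light and 39.7 and 32.1 in the heavy fractions, with intervals that included 1. Eif4e, the cap binding protein, was at 28.7 and 22.0 FPKM in CD and WD total, 39.2 and 34.8 in the light and 12.1 and 14.7 in the heavy fractions. It had 1 of the 3 lowest total changes (-0.38) and a log2 density change of 0.45. Its relatives were scarce. Eif4e2 was at 10.1 and 7.67 FPKM in CD and WD total, Eif4e3 did not exceed 1.17 FPKM, and Eif4e1b was listed at 0 throughout. Eif4e2 was listed at 0 in CD light and CD heavy, and was at 9.17 FPKM in WD light and 8.04 in WD heavy. Its folds in both fractions therefore depend on the added 0.1.

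The 3 eIF4G genes differed in both level and direction. Eif4g2 encodes DAP5, a form that lacks the eIF4E binding site. It was at 50.0 and 47.0 FPKM in CD and WD total, 88.2 and 99.0 in the light and 24.4 and 14.8 in the heavy fractions. The heavy ratio was 0.610 (0.424 to 0.868) and the density ratio 0.543 (0.368 to 0.793), or -0.55 on the log2 scale after rescaling, and the heavy level differed more between the diets than the light level did. Eif4g3 was at 13.6 and 11.5 FPKM in CD and WD total, 7.95 and 4.20 in the light and 10.1 and 16.0 in the heavy fractions. It had the highest log2 density change among members of at least 10 FPKM (1.55), and heavy over total gave 0.88. Eif4g1, the scaffold of the cap complex, was at 2.48 and 3.59 FPKM in CD and WD total, 1.12 and 6.30 in the light and 1.80 and 0.585 in the heavy fractions, a log2 density change of -3.87. No fragment numbers were found for Eif4g1 and Eif4g3.

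Among the modifiers and accessory proteins, Eif4enif1, a partner of eIF4E that represses mRNAs, had the one density interval above 1. It was at 1.20 FPKM in CD heavy and 7.44 in WD heavy, from 3 and 19 fragments, and between 6.67 and 8.22 FPKM in the other 4 libraries. The density ratio was 6.74 with an interval of 1.80 to 41.7, and it turns on the 3 fragments of CD heavy. Eef2k, the kinase that inactivates eEF2, was at a mean of 1.06 FPKM, too low for its changes to be read.

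Apart from the diet, the members differed in which fraction they favoured, and the order was similar in both diets. The 4 fraction libraries are separate, so that the heavy over light ratio was measured in different libraries for CD and WD. Over the 48 members above 0 in all 4, Spearman's rho of the log2 ratio was 0.65 and Pearson's r 0.59, beside 0.61 and 0.60 over 8588 loci. The ratios of a gene share its length and sequence in both diets, and genes are not replicates. At least 1.5-fold toward the heavy fraction in both diets were 7 members (19.6% of all loci), and at most 0.75-fold in both were 16 (24.2%). By diet, 14 members were at least 1.5-fold in CD (32.9%) and 10 in WD (31.4%), and 20 were at most 0.75-fold in CD (36.6%) and 24 in WD (38.5%). The interval lay above 1 for 5 of 37 in CD (16.4%) and 5 of 38 in WD (20%), and below 1 for 10 in CD (13.9%) and 12 in WD (17.5%). In libraries rescaled to the same sum, the WD split was 11 and 18, beside 40.2% and 32.0% of all loci.

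**Figure D3:**
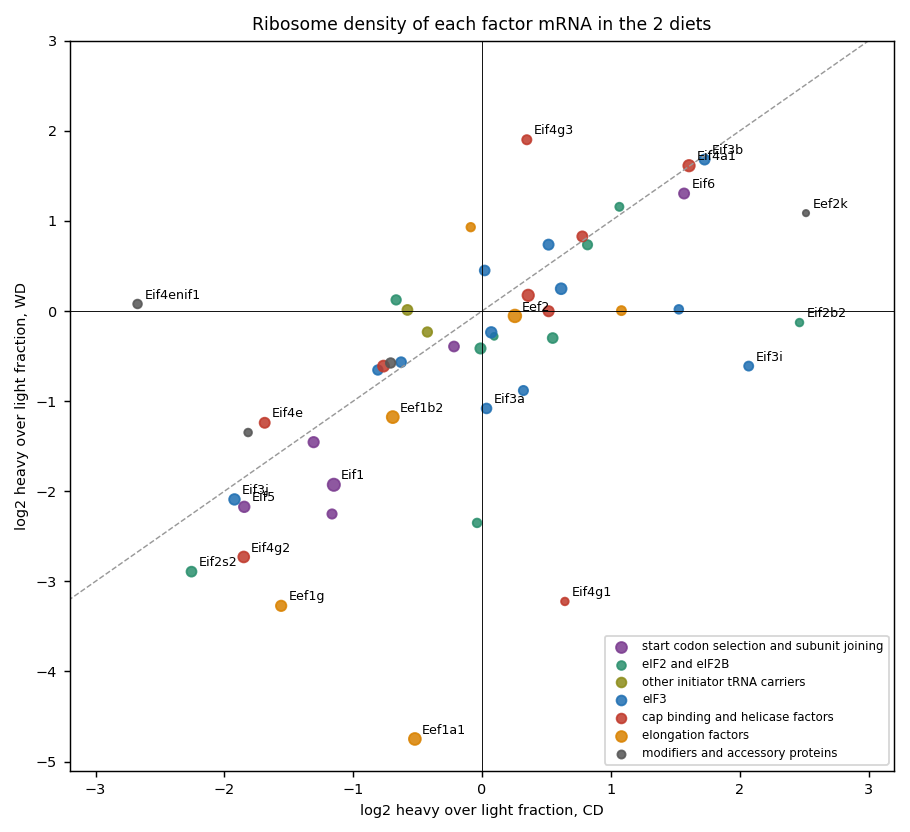
Log2 heavy over light fraction in the CD (horizontal) and in the WD (vertical) for the 48 members above 0 in all 4 fraction libraries, coloured by role, with larger points for higher mean FPKM and a dashed line of equal density. Eif4a1 and Eif3b lie near the line at the upper right, Eif5, Eif3j, Eif2s2 and Eif4g2 at the lower left, and Eef1a1 lies far below the line, at -0.52 in CD and -4.75 in WD.

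The counting interval lay above 1 in both diets for 2 members of 37 (12% of all loci), Eif4a1 and Eif3b. Eif3b, an eIF3 core subunit, was at 14.6 and 11.5 FPKM in the CD and WD light fractions and at 48.5 and 37.0 in the heavy ones. The interval lay below 1 in both diets for 9 of 37 (8.88%), namely Eef1b2, Eef1g, Eif1, Eif1a, Eif1ax, Eif2s2, Eif3j, Eif4g2 and Eif5. Eif2s2, the β subunit of eIF2, had the lowest CD ratio of these 9, at 27.0 FPKM in the light and 5.57 in the heavy fraction, on 26 and 5 fragments. This group holds 4 of the 7 factors of start codon selection and subunit joining, without Eif1b, Eif5b and Eif6, and Eif6 has no interval. For Eif6, which keeps the large subunit from joining too early, the heavy level was 33.6 FPKM in CD and 39.4 in WD against 11.3 and 15.9 in the light fraction. Opposite sides past the limits in CD and WD were taken by 3 members, Eif3i, Eif4g1 and Eif5b, with means of 2.31 to 9.29 FPKM, where 8.26% of all loci did so.

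The TOP members were compared with the rest because their translation is known to follow mTORC1. Density was higher with the WD for 2 of 9 and lower for 7, and 5 were at most 0.75-fold (Eef1a1, Eef1b2, Eef1d, Eef1g and Eif3h), beside 36.1% of all loci. The CD density of Eif3h is set by the added 0.1, since both its CD fractions are listed at 0. Their median log2 change was -0.48, or -0.40 without Eif3h, beside -0.19 for the 42 other members. With heavy over total in place of heavy over light, the TOP median was -0.18, or -0.21 without Eif3h, and that of the other members was -0.23, so that the order of these medians turned. After rescaling to the same sum, the TOP median of heavy over light was -0.155, with 4 of 9 members higher, and that of the other members 0.13. The cytosolic ribosomal protein mRNAs, the largest TOP family, had a median of -1.05 over 64 genes by heavy over light and of 0.00 by heavy over total. Without the 16 genes listed at 0 in a library used, the median by heavy over light was -0.69, and after rescaling all 64 it was -0.72. Their median light fraction change was 1.04, against 0.13 for the TOP members and 0.13 for the other members, or 0.68, -0.23 and -0.22 after rescaling.

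**Figure D4:**
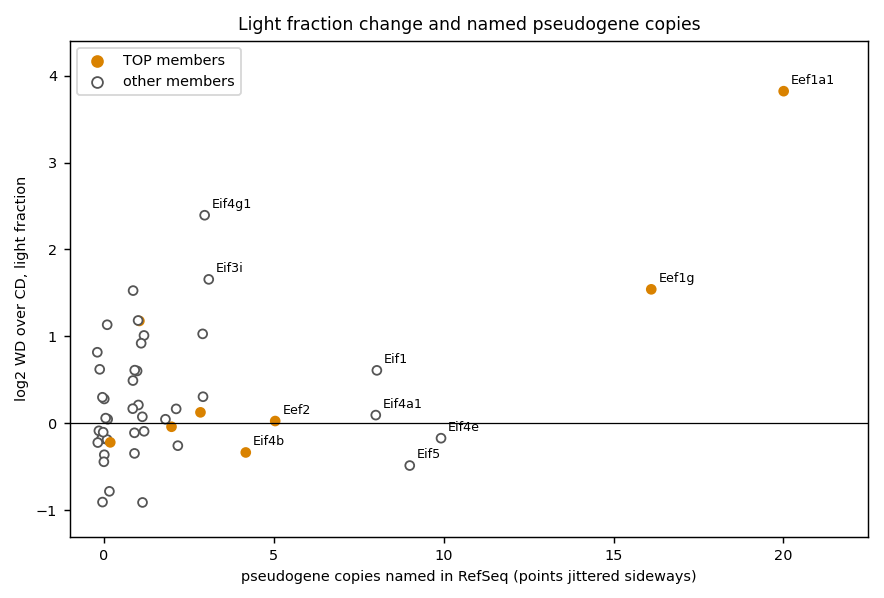
Log2 WD over CD in the light fraction against the number of pseudogene copies that RefSeq names for each of the 49 members above 0 in both light libraries, with TOP members filled. Eef1a1 (20 copies) and Eef1g (16 copies) lie highest among the members with 6 or more copies, while Eif4e (10), Eif5 (9) and Eif4a1 (8) lie between -0.48 and 0.10.

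Several of these genes have many processed pseudogenes, and reads may be divided between a gene and its copies. The 17 members with 0 named copies had a median light fraction change of -0.10, the 21 with 1 or 2 copies 0.21, the 7 with 3 to 5 copies 0.31 and the 6 with 6 or more copies 0.35. Over all loci the medians of these 4 classes were 0.01, 0.06, 0.22 and 0.46. The members' median density changes were 0.05, -0.37, -0.48 and -0.55 in the same order, beside 0.00, -0.07, -0.38 and -0.38 over all loci. The part of shared reads in the light fraction result was not tested. Without the 13 members with 3 or more copies, 38 remained, with a median density change of -0.18, and 24 of them were lower with the WD.

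Other genes of the translation machinery, from a list of 30 that holds eIF4E and eIF2 regulators, poly(A) binding proteins and release factors, gave 27 loci that passed the filter. In total RNA 2 were at least 1.5-fold higher with the WD and 4 at most 0.75-fold, beside 17.7% and 22.7% of all loci, with a median log2 change of -0.05. In density 5 were at least 1.5-fold higher and 11 at most 0.75-fold, beside the 27.7% and 36.1% of all loci, with a median of -0.37 beside the members' -0.31. Rescaling gave 7 and 5, beside 38.0% and 27.2%, with a median of -0.04. Among those with a mean of at least 10 FPKM, Eif4ebp1, the eIF4E inhibitor that mTORC1 switches off, had the lowest density change. It was at 23.8 and 27.4 FPKM in the CD and WD light fractions and at 12.8 and 4.17 in the heavy ones, a log2 density change of -1.80 on 6 and 2 heavy fragments. Paip2, which holds poly(A) binding protein off the mRNA, had the highest at 0.88, on 6 and 11 heavy fragments in CD and WD. In total RNA the highest was Etf1, the release factor, at 0.40, on 61 and 77 fragments in CD and WD. The lowest was Denr, a recycling factor, at -0.70, on 17 and 10 fragments. The 9 factors of mitochondrial translation had 4 members higher and 5 lower in density with the WD (median -0.49) and a median of 0.19 in total RNA. The 2 that averaged 10 FPKM or more were Gfm1, a translocase of mitochondrial ribosomes, with a log2 density change of -1.09, and Tsfm, the exchange factor of mitochondrial EF-Tu, with 0.38.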

How the data were processed

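The authors depleted ribosomal RNA, sequenced the libraries, mapped reads to Rnor_6.0 using TopHat and obtained FPKM from Cufflinks and Cuffnorm. FPKM of each locus was deposited with a lower and an upper bound. The annotation and the use of strand are not given in the sources used here. Software was scipy 1.17.1, numpy 2.4.6, pandas 2.3.3, Python 3.11.15 and matplotlib 3.10.9.

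Compared were 10201 loci that have a symbol, an estimate with status OK and at least 1 FPKM on average. Log2 ratios were taken after adding 0.1 to the deposited FPKM. With 1 library per group no p-value was computed. Fragment numbers were inferred as whole numbers explained by 1 step per locus and 1 factor per library, within a tolerance of 0.001, and were found for 71.3% of the loci compared, with medians of 9 to 23 fragments per locus by library. A common multiple of these numbers would give the same FPKM. Intervals are Clopper-Pearson for ratios and conditional odds ratio intervals for density, and cover counting error only, since PCR copies are counted as separate molecules. The inference of fragment numbers, and the Clopper-Pearson intervals for total RNA, were tested on data simulated under the same model. The density intervals were not tested in this way.

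RefSeq (GRCr8) held the symbols of 8670 loci compared (85.0%), and supplied pseudogene names and the start site sequences, which 47 of the 51 members have. Values in every library are given for TOP members, members averaging at least 30 FPKM, and the 3 highest and 3 lowest total and density changes among those averaging at least 10 FPKM, and other members are named for counts of 5 or fewer or as paralogues compared (Eif4e, Eif4g and Eif1 relatives, Eef1a2, Eif5a2). Members and lists were chosen with earlier results of these data known, and the TOP list rests on general knowledge. Alternatives were other filters (at least 10, at least 0.1, none), pseudocounts of 1 and 0.01, rescaled libraries, centring, symbols with 1 locus, folds of 2 and 0.5, heavy over total, and, chosen after seeing the data, leaving out members with 3 or more pseudogene copies or listed at 0.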

Additional observations from a re-analysis of the deposited data

Results flagged for a closer look

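Among the 36 members with a mean of at least 10 FPKM, 2 moved past the limits of 1.5 and 0.75 in opposite directions in the light and the heavy fraction. The share of all loci that did so was not computed, so whether 2 is many cannot be said. Of all loci with that mean, 17.1% were at least 1.5-fold and 27.2% at most 0.75-fold in the light fraction. In the heavy fraction 13.3% and 19.2% were. Eif4g3 was lower with the WD in the light fraction and higher in the heavy fraction, and the heavy change exceeded the light change by 1.55 log2 units. Eif3a was higher with the WD in the light fraction and lower in the heavy fraction, with a heavy change 1.12 log2 units below the light change (a difference of -1.12). After rescaling, the light change of Eif3a was 0.27 on the log2 scale, inside the limit. The difference between the fractions was not tested, since each rests on 1 library per diet.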

How the results depend on the processing

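No paired analysis was possible because each group holds 1 library. The number of members past either fold limit stayed within 1.5 times the value reported in 68 of 79 counts under the alternatives. Each such number joins both directions, so a turn of the split between them, as in the light fraction after rescaling, does not register in it. A mean of at least 10 FPKM keeps 36 of 51 members. It left 1 past the limits in total RNA in place of 10, and 14 in density in place of 25. In the heavy fraction it left 14 and in the light fraction 12, in place of 23 each. In density it left 3 TOP members in place of 5. Of all loci with that mean, 23.3% were at least 1.5-fold and 27.6% at most 0.75-fold in density. These shares were 13.3% and 19.2% in the heavy fraction, 17.1% and 27.2% in the light fraction, and 8.77% and 16.2% in total RNA. Folds of 2 and 0.5 gave 6 in total RNA, 11 in the heavy fraction, 12 in the light fraction and 20 in place of 34 for heavy over light in CD, as stricter limits must. Of all loci, 9.60% were at least 2-fold and 8.87% at most 0.5-fold in total RNA. These shares were 13.0% and 11.6% in the heavy fraction, 16.3% and 10.4% in the light fraction, and 23.0% and 23.9% for heavy over light in CD. For the TOP members, heavy over total gave 3 and leaving out members with 3 or more pseudogene copies gave 2 of the 4 that remain. Heavy over total turned the density change of Eef1g (0.16), Eif2d (-0.38) and Eif3l (0.62), and the cause was not tested. Of 633 values of single members recomputed, 595 stayed within their counting interval (or within 0.1 log2 units where none was known), 35 moved further, and these 3, past a fold limit as reported, changed sign. Rescaling to the same sum turned the sign of the light fraction change for 13 members and of the density change for 11. At 9 to 23 fragments per median locus, changes of members below 10 FPKM are poorly measured.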
